A study of Mus musculus with 8 samples.

Results

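The regions described here are the rows of a deposited region list that lay more than 100000 bp from the body of every protein-coding gene on mouse chromosomes 1 to 19, with a score under 5000 and a width under 2000 bp. Distances were measured on the RefSeq annotation of assembly GRCm38.p6, which mm10 names. There were 20492 such far regions among 214672 regions on these chromosomes, which is 9.55% (95% Wilson interval 9.42% to 9.67%, for counting error only), and the list held 220894 regions in all. The rule used position, score and width alone, and no comparison between lines.

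The list came from hybrid-capture bisulfite sequencing (Agilent SureSelect XT, Mouse Methyl-Seq) of genomic DNA from 8 mouse cell lines grown in DMEM with 10% FBS. The 4 IDH mutant tumour lines were derived from brain tumours of N::TVA mice whose conditional alleles included Cdkn2alox/lox and Atrxlox/lox. The 2 IDH wild-type tumour lines, described as RAS glioma, came from N::TVA mice with Cdkn2alox/lox and no other listed allele. The 2 IDH wild-type lines of immortalized astrocytes had the same mouse genotype as the IDH mutant lines, carried PDGFA in their names, and 1 of them expressed exogenous wild-type IDH1. N::TVA and Cdkn2alox/lox were thus shared by all 8 lines, and the background was C57Bl/6, 129 and FVB/n throughout. The labels give no ages and do not say whether a line is a clone.

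Gene deserts are long stretches of genome without protein-coding genes. Many are known to hold enhancers, short stretches that raise the transcription of a gene from a distance, and the deserts best studied for them flank genes of developmental transcription factors. Most CpG dinucleotides between genes are methylated in mammalian cells, and methylation is typically lower at active enhancers and at CpG-rich promoters. Mutant IDH enzymes make a metabolite that inhibits the TET enzymes, which start the removal of DNA methylation.

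Each region had a start, an end and 1 score, a whole number that stands for the whole series. The sources used here do not say what the score counts, and the file gives neither methylation levels nor values for single lines. The depth of each line is therefore unknown, no difference between IDH mutant and IDH wild-type lines could be given, and the values below carry no error between replicates. Regions of 1 list are not replicates, so no test was made and all differences are descriptions of this list.

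The file gives positions and no bases, so sequence is shown where a far region covered a promoter or a microRNA of the RefSeq tables. The following 6 windows run from 250 bases before to 50 bases after the annotated start of a long non-coding RNA (lncRNA). They are shown because they span the range of CpG content met among the covered windows, from 33 CpG dinucleotides to 0. They are the named lncRNAs whose whole window lay inside a far region, together with the covered window richest in CpG, that of 5730522E02Rik. Capitals mark CpG dinucleotides, and each sequence runs 5′ to 3′ on the strand of its gene, from RefSeq GRCm38.p6.
5730522E02Rik: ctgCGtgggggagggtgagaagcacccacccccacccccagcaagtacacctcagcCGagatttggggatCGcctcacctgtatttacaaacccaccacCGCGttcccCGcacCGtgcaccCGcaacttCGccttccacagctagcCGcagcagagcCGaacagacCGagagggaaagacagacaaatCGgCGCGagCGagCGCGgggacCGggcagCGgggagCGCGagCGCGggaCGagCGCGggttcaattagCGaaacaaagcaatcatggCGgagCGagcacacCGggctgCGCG
Dubr: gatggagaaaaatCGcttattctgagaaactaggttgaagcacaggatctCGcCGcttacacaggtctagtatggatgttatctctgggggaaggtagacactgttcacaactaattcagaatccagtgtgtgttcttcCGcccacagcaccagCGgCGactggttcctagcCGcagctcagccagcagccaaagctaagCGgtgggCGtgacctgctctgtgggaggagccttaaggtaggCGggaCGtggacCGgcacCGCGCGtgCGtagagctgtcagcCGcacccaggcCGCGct
Lncpint: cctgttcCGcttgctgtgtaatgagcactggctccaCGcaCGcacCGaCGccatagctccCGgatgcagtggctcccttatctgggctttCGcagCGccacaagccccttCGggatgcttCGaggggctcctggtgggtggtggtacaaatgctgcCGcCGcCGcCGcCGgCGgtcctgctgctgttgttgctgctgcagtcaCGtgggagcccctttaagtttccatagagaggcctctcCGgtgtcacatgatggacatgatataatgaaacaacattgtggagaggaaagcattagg
Mir205hg: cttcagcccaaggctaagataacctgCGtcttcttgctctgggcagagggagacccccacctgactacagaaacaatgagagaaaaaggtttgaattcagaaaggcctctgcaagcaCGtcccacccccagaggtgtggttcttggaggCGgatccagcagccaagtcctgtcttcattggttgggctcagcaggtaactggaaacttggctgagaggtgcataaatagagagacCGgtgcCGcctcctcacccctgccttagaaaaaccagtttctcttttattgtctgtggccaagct
Mir100hg: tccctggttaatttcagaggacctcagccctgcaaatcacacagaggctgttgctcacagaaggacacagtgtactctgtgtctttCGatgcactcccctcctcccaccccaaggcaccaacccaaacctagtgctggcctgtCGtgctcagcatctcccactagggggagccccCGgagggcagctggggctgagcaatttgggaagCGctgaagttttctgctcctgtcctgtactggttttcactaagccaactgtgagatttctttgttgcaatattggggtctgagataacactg
Celrr: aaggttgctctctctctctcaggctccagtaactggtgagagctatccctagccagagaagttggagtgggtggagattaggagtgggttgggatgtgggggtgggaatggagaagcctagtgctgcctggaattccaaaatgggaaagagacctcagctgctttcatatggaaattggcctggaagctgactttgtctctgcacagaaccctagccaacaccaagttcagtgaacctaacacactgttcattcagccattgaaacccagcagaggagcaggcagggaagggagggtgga

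The window of 5730522E02Rik is at chr11:26210527-26210826 on the minus strand, in the desert between Bcl11a and Fancl. Its 33 CpG dinucleotides were the most in any covered window, and 276 of its 300 bases lay in a far region with a score of 325. The window of Dubr is at chr16:50732724-50733023 on the minus strand, between Ccdc54 and Cblb, with 19 CpG dinucleotides in a region that scored 1028. The window of Lncpint, a lncRNA that p53 is known to induce, is at chr6:31218425-31218724 on the minus strand, between Klf14 and Mkln1, with 18 CpG dinucleotides in a region that scored 1153. These 3 are the CpG-rich end of the range.

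The window of Mir205hg, the host transcript of miR-205, is at chr1:193510161-193510460 on the minus strand between Camk1g and Plxna2, with 5 CpG dinucleotides and a region score of 420. That of Mir100hg, a microRNA host transcript, is at chr9:41474643-41474942 on the plus strand between Ubash3b and Gm40514, with 4 CpG dinucleotides and a region score of 526. That of Celrr is at chr1:121087155-121087454 on the plus strand between En1 and Insig2. It held no CpG dinucleotide, and the region over it was 1060 bp wide and scored 621, while the region over the 33 CpG dinucleotides of 5730522E02Rik was 450 bp wide and scored 325. CpG content was thus not ordered like the score among these 6 windows, whose regions differ in width.

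Far regions lay on 2 annotated microRNAs, Mir539 and Mir6388, out of 113 autosomal microRNA genes that lay as far from protein-coding genes (1.77%, 95% Wilson interval 0.487% to 6.22%). Far regions covered 1.34% of far sequence, which is near this share. A microRNA gene counts when it shares any base with a far region, so these shares are not like measures. The region over Mir539 scored 496 and lay at chr12:109727851-109728860, between Rtl1 and Dio3, in the imprinted domain where many microRNAs are transcribed from the maternal chromosome. Its mature 5p product is shown with the seed, bases 2 to 8, in capitals. The region over Mir6388 scored 1086 and lay in the immunoglobulin heavy chain locus.
mmu-miR-539-5p: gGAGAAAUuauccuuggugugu

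Far regions were sparse for the length of sequence they could occupy. Sequence more than 100000 bp from protein-coding genes made up 657 Mb, or 27.3% of the 2403 Mb spanned by the list on these chromosomes. Far regions numbered 31.2 per Mb there, against 109.7 regions per Mb in the rest, a ratio of 0.284. The density was 116.5 regions per Mb in gene bodies, 142.8 within 10 kb of a gene, 91.4 from 10 to 50 kb and 64.3 from 50 to 100 kb. It was lower still inside the deserts, at 45.6 per Mb at 100 to 200 kb, 30.1 at 200 to 500 kb, 19.4 at 500 to 1000 kb and 16.3 beyond 1000 kb. The kit captures chosen targets, and their positions were not used here.

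**Figure D1:**
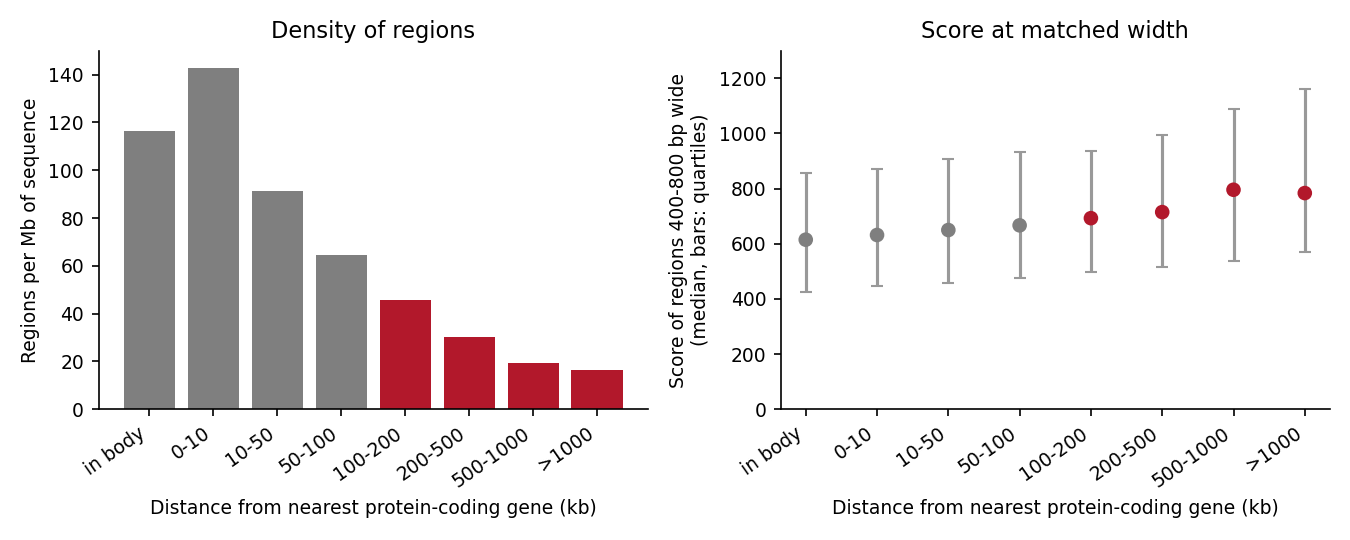
Density of regions (left, regions per Mb of sequence) and score of regions 400 to 800 bp wide (right, median with bars from the lower to the upper quartile) by distance from the nearest protein-coding gene in kb. Red marks the 4 classes beyond 100 kb and grey the nearer ones; density is 142.8 per Mb within 10 kb and 16.3 per Mb beyond 1000 kb, while the median score is between 693 and 796 in the red classes and between 615 and 667 in the grey ones.

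The median far region lay 224 kb from the nearest protein-coding gene. There were 3700 far regions more than 500 kb away and 1073 more than 1 Mb away, and the farthest lay 2249 kb away. Every one of the 19 chromosomes held some, from 324 on chromosome 19 to 1600 on chromosome 1.

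Far regions were narrower than the rest, with lower scores that went with their width. Their median width was 370 bp (quartiles 210 and 590), against 430 bp for nearer regions between genes, 460 bp in gene bodies and 560 bp at gene ends, all under the same limits of score and width. The median score of far regions was 398 (quartiles 190 and 745), against 448, 465 and 487 in those 3 classes. Gene ends are here taken as the last 1000 bp on the inside and the next 1000 bp on the outside of where a gene starts or stops. Regions no wider than 200 bp were 24.1% of far regions, against 17.6% of the nearer regions between genes, 16.3% of those in gene bodies and 10.4% of those at gene ends.

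Score and width moved together across the 20492 far regions (Spearman's rho 0.879, a description across regions of 1 list). At a matched width of 400 to 800 bp the order of the classes turned round. The 7886 far regions of that width had a median score of 713 (quartiles 510 and 982), against 650 for 28314 nearer regions between genes, 633 for 40656 in gene bodies and 546 for 12257 at gene ends. The quartile ranges overlapped widely. Below 300 bp the classes lay close together, with medians at 200 to 299 bp of 236 for far regions, 242 for nearer ones, 238 in bodies and 217 at ends. Above it they parted, and at 800 to 1199 bp the medians were 945 for far regions, 818 for nearer ones, 813 in bodies and 756.5 at ends.

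**Figure D2:**
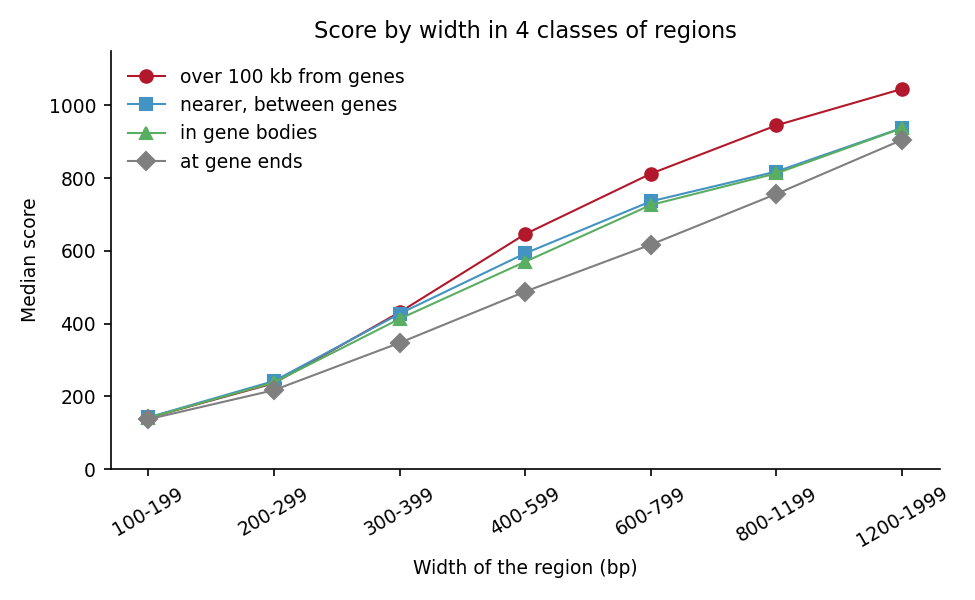
Median score by width of the region in bp, for far regions (red circles), nearer regions between genes (blue squares), regions in gene bodies (green triangles) and regions at gene ends (grey diamonds). The 4 lines run close together below 300 bp, and the far regions lie highest from 300 bp upward, at 1045 in the widest class, from 1200 bp, against 905 at gene ends.

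Scores of at least 1000 were found in 2721 far regions (13.3%), against 12.7% of all autosomal regions under the same limits. Scores under 200 were found in 5512 far regions (26.9%), against 19.8%. Far regions were thus more often at the low end of the score, while their share at the high end was near that of the whole list.

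The far regions fell into 1266 of 1376 gene deserts. A desert is taken here as a stretch of more than 200000 bp between neighbouring protein-coding genes, and its core as the sequence more than 100000 bp from both. Those with a far region had a median core of 0.258 Mb, against 0.0168 Mb for the 110 without. The longest cores without a far region were 0.239 Mb between Gm17019 and Gm21149 on chromosome 5, 0.211 Mb between Smpdl3a and LOC100504180 on chromosome 10, and 0.203 Mb between Mup22 and Mup13, genes of major urinary proteins on chromosome 4. All 185 deserts with a core of at least 1 Mb held far regions. A further 248 far regions lay in 16 stretches at chromosome ends that have a gene on 1 side only, with 51 before Hnf4g on chromosome 3 as the most.

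The median desert with far regions held 11, and 101 deserts held 1 each. The 63 deserts with at least 50 held 4278 between them. Larger deserts held more far regions (Spearman's rho 0.832 across the 1376 deserts, a description), and held them more sparsely. Cores under 0.1 Mb held 67.3 far regions per Mb, those of 0.2 to 0.5 Mb 46.2, those of 1 to 2 Mb 23.9 and those of 3 Mb or more 18.7. Among the 185 deserts with a core of at least 1 Mb the density ran from 6.98 to 80.8 per Mb, with a median of 19.6 (quartiles 15.0 and 27.0).

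**Figure D3:**
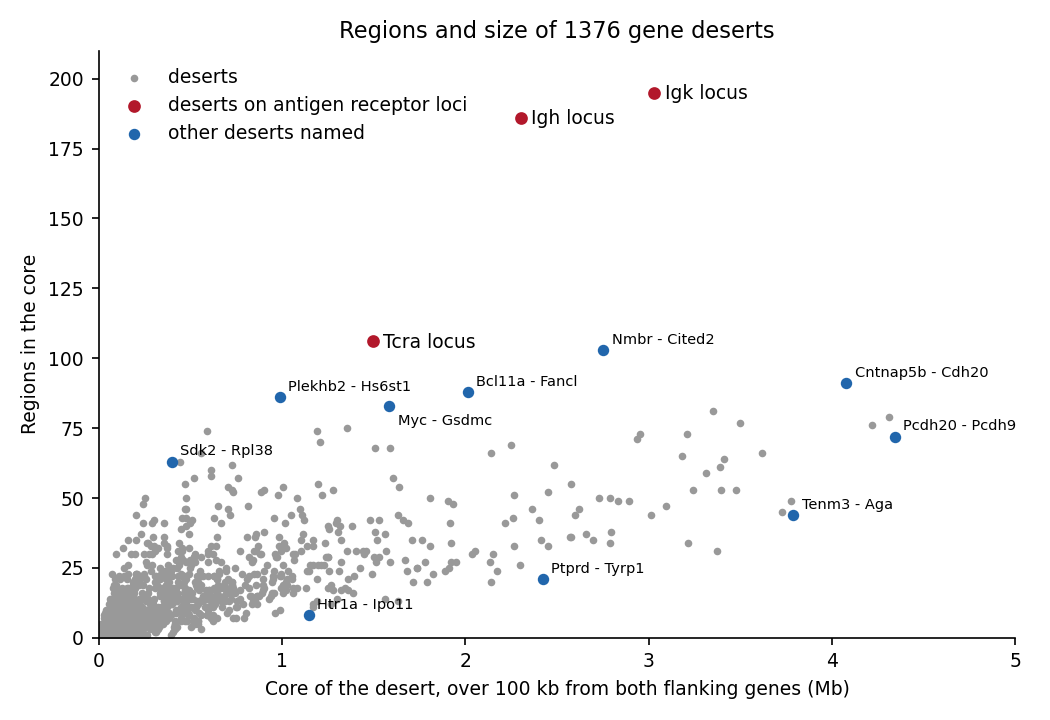
Number of far regions in each of 1376 gene deserts (vertical axis) against the size of the core in Mb (horizontal axis). The 3 deserts on antigen receptor loci (red) hold 195, 186 and 106 far regions and stand above the other deserts named (blue), of which the one between Nmbr and Cited2 holds the most, 103.

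The 3 deserts with most far regions were not empty of coding sequence: they are antigen receptor loci. These loci hold the variable (V), joining and constant segments that lymphocytes cut and rejoin to make antibodies and T cell receptors, and the annotation does not type V segments as protein-coding genes. The first, on chromosome 6, is the immunoglobulin kappa locus (Igk) and held 195 far regions in a core of 3.03 Mb. The desert between Adam6a and Zfp386, at chr12:113546415-116047713, is most of the immunoglobulin heavy chain locus (Igh) and held 186 in 2.30 Mb. The desert between Gm36448 and Dad1, at chr14:52541357-54235484, is the T cell receptor alpha and delta locus (Tcra and Tcrd) and held 106 in 1.49 Mb. By what they encode these 3 stretches go against the label of gene desert, and they held 487 of the 20492 far regions.

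These 3 deserts were also the densest of all with a core of at least 1 Mb, at 64.4 far regions per Mb for Igk, 80.8 for Igh and 70.9 for Tcra, against 30.9 per Mb over all deserts. The desert between Plekhb2 and Hs6st1, with a core just under that size at 0.989 Mb, was denser, at 87.0 per Mb. Without the 3 receptor deserts the density over deserts was 30.5 per Mb. Most of their far regions did not lie on a V segment: in the whole list 80 far regions lay on V segments and 31 on V pseudogenes. Of 326 V segments far from protein-coding genes, 78 (23.9%) shared a base with a far region, while far regions covered 1.34% of far sequence. A segment counts with 1 shared base, and the share of bases covered within these denser loci was not computed. These shares are thus not like measures, and their difference was not tested. In Igk, 18 of 96 V segments that lay far from genes shared a base with a far region (18.8%, Wilson interval 12.2% to 27.7%), and so did 18 of 59 V pseudogenes. In Igh, 28 of 111 V segments did (25.2%, 18.1% to 34.0%), with 9 of 57 pseudogenes. In Tcra, 31 of 113 did (27.4%, 20.1% to 36.3%), with 3 of 16 pseudogenes. The 3 intervals overlapped.

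Scores at matched width differed between the 3 loci. The median score of regions 400 to 800 bp wide was 1555 in the desert of Tcra, 1191 in that of Igh and 773 in that of Igk. Over the 65 deserts with at least 20 such regions the median was 695.5 (quartiles 655.5 and 821). Between the desert of Tcra and that of Igh stood Kcnt2 to Cdc73 on chromosome 1, with 1232.5. The lowest were Rps24 to Zmiz1 on chromosome 14 with 330, Sdk2 to Rpl38 on chromosome 11 with 463, and Mn1 to Cryba4 on chromosome 5 with 481. V segments are families of similar sequences, and the sources used here do not say how reads that match several copies were placed.

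The other antigen receptor loci lie closer to protein-coding genes and held few far regions. Igl, the immunoglobulin lambda locus, held 5, Tcrb, the T cell receptor beta locus, held 1, and Tcrg, the gamma locus, held 0 of the 8 regions placed in it. The 7 loci together held 495 far regions, 2.42% of all.

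**Figure D4:**
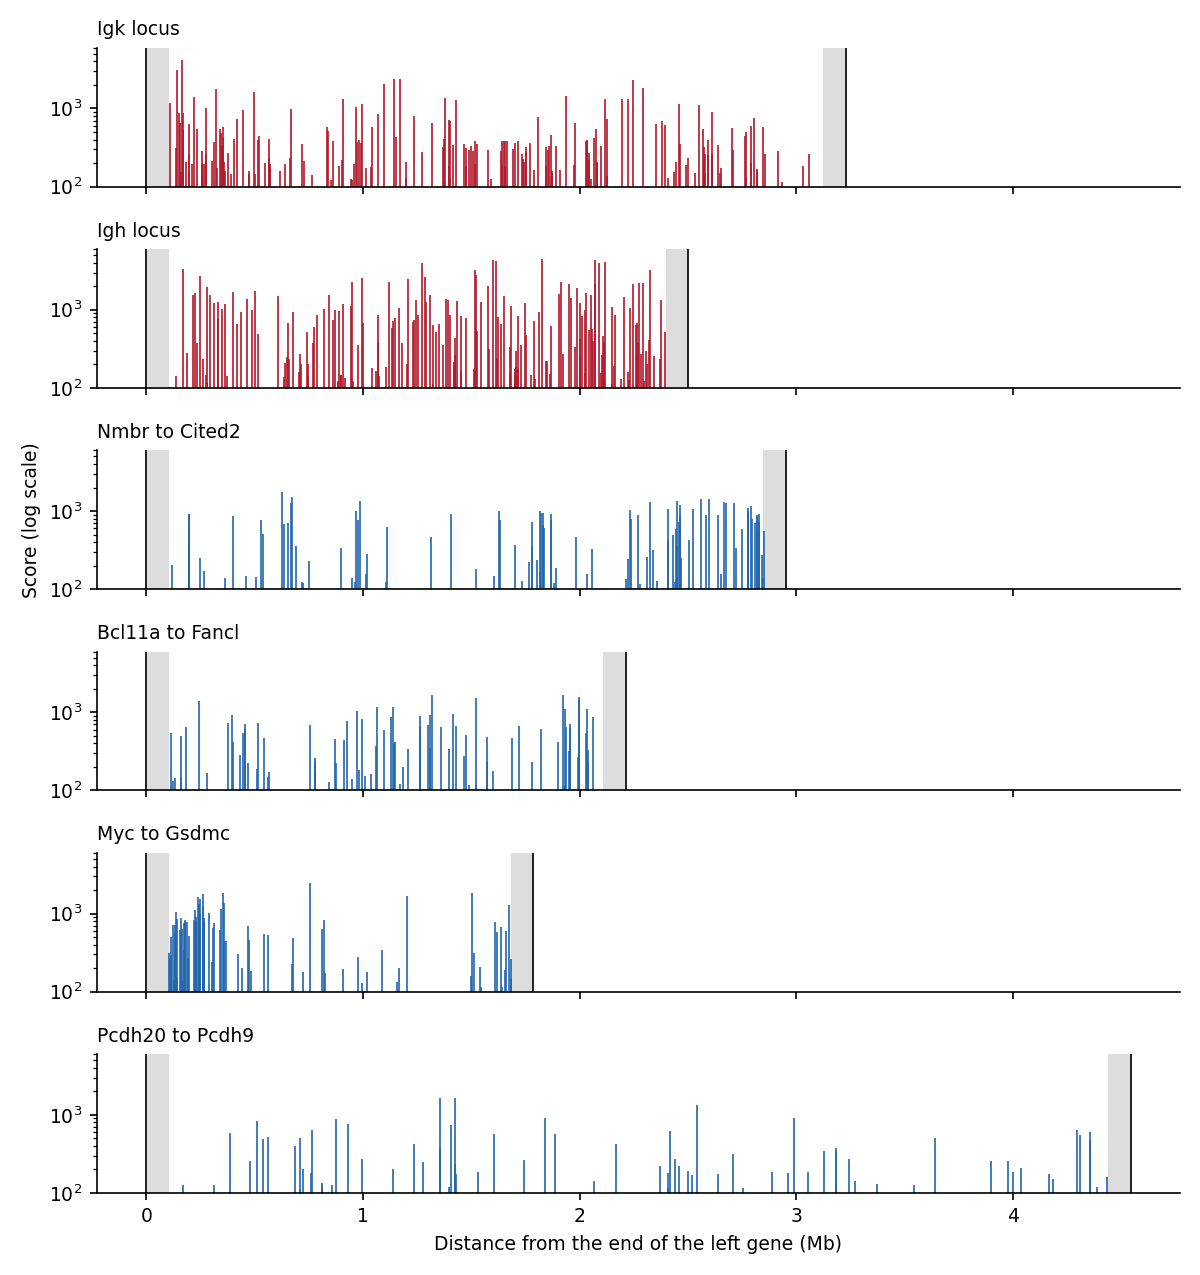
Score of each far region (vertical lines, log axis) by its distance in Mb from the end of the left gene, in 6 deserts named by their flanking genes or, for the 2 receptor loci, by the locus. Grey bands mark the 100 kb next to each gene, which the rule leaves out, and black lines the gene edges; lines crowd throughout Igk and Igh (red), toward Cited2 between Nmbr and Cited2, and toward Myc between Myc and Gsdmc (blue).

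Apart from the receptor loci, the desert with most far regions lay between Nmbr, the neuromedin B receptor, and Cited2, a transcriptional co-regulator, on chromosome 10. It held 103 far regions in a core of 2.75 Mb, with scores between 115 and 1738 and a median of 596. Of these, 70 lay in the part of the core nearer to Cited2, with a median score of 689.5, and 33 in the part nearer to Nmbr, with a median of 375. The regions of this desert were therefore both more numerous and higher scoring on the side of Cited2. Scores of the sides of a desert, here and below, are not matched for width, with which score rises.

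Cntnap5b, of the contactin-associated protein family, and Cdh20, a cadherin, flanked the next desert, on chromosome 1, with 91 far regions in 4.08 Mb and a median score of 268. Bcl11a, a zinc finger transcription factor of neurons and blood cells, and Fancl, a ubiquitin ligase of DNA repair, flanked 88 far regions in 2.01 Mb on chromosome 11, with a median score of 447.5. The lncRNA 5730522E02Rik, whose promoter is printed above, held 29 of these. Both deserts are large, but the second held about as many regions in a smaller core, at 43.7 per Mb against 22.3 per Mb for Cntnap5b to Cdh20.

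The desert between Plekhb2 and Hs6st1, a heparan sulphate sulphotransferase, on chromosome 1 held 86 far regions in 0.989 Mb, at 87.0 per Mb. The desert between Cdh6 and Cdh9, both cadherins, on chromosome 15 held 81 in 3.35 Mb, with scores up to 2885. The desert between Zeb2, a transcription factor of neural crest and glial development, and Acvr2a, an activin receptor, on chromosome 2 held 77 in 3.50 Mb. Of its regions, 44 lay on the side of Zeb2 with a median score of 527, and 33 on the side of Acvr2a with a median of 301. Olfm4 and Pcdh17, a protocadherin, on chromosome 14 flanked 76 in 4.22 Mb, and Celf4, an RNA-binding protein of neurons, and Pik3c3, a lipid kinase, on chromosome 18 flanked 79 in 4.31 Mb.

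The longest core was that between Pcdh20 and Pcdh9, both protocadherins, on chromosome 14, with 72 far regions in 4.34 Mb. Its regions were split evenly, 36 to each side, and their median score was 255. Tenm3, a teneurin adhesion protein, and Aga on chromosome 8 flanked 44 in 3.79 Mb, and Slc39a10 and Tmeff2 on chromosome 1 flanked 49 in 3.77 Mb. The sparsest deserts with a core of at least 1 Mb lay between Htr1a, a serotonin receptor, and Ipo11 with 8 far regions (6.98 per Mb), between Slitrk1 and Slitrk6, synaptic adhesion proteins, with 13 (7.96 per Mb), between Ptprd, a receptor phosphatase of synapses, and Tyrp1 with 21 (8.67 per Mb), and between Gm6749 and Grm7, a glutamate receptor, with 14 (8.96 per Mb). These 4 were chosen after their values were seen.

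Genes that flank deserts were described by 8 gene lists, made from gene symbols. Of 20558 protein-coding genes on these chromosomes, 2344 (11.4%) flanked a desert and 344 flanked a desert with a core of at least 1 Mb. Of 246 genes of neural adhesion and axon guidance, 103 (41.9%) flanked a desert. Their 144 deserts held 3573 far regions at 20.2 per Mb, against 30.9 per Mb over all deserts, and their median core of 0.754 Mb was larger than the 0.221 Mb of all deserts. Among cores of at least 1 Mb the median density was 17.7 per Mb for theirs and 19.6 per Mb for all, a smaller difference. They were 1.20% of all genes, and 57 of the 344 genes (16.6%) beside the longest deserts. Besides those above, Cdh2, the neural cadherin, flanked 73 far regions in its desert with Dsc3 on chromosome 18, and Slitrk5 and Gpc5, a glypican, flanked 73 on chromosome 14.

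Of 323 developmental transcription factors, 125 (38.7%) flanked a desert, and their 151 deserts held 2719 far regions at 39.5 per Mb. Their median core was 0.344 Mb, shorter than that of the adhesion genes. After Bcl11a and Zeb2, the members beside most far regions were Sall3 with 70, Runx1 with 66 (118.4 per Mb), Nr2f1 with 62 and Pou3f1 with 57 (109.5 per Mb). Sall3 is a spalt zinc finger gene, Runx1 the runt factor of blood formation, Nr2f1 a nuclear receptor of cortical patterning, and Pou3f1 a POU factor of Schwann cell and neural development.

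Of 243 ion channel and transmitter receptor genes, 70 (28.8%) flanked a desert, with 945 far regions at 23.6 per Mb, led by Grik2, a kainate receptor subunit, with 65. Of 132 growth factor and morphogen genes, 37 (28.0%) flanked a desert, with 540 far regions at 36.6 per Mb, led by Fzd8, a Wnt receptor, with 50. Of 1506 olfactory, vomeronasal and taste receptor genes, 25 (1.66%) did, with 70 far regions at 32.0 per Mb; these genes mostly lie in clusters. Of 389 genes named Zfp, 35 (9%) did, with 795 far regions at 51.3 per Mb, of which 186 are those of Igh beside Zfp386. Of 1404 predicted or clone-named genes, 171 (12.2%) did, with 2770 far regions at 33.8 per Mb.

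Of 45 genes known from glioma or glial fate, 27 (60.0%) flanked a desert, the largest share of the 8 lists. Their 36 deserts had 726 far regions at 54.1 per Mb, with a median core of 0.237 Mb. Density fell with core size, so the 30.9 per Mb over all deserts is not a like comparison. The cores of the list ran from 0.00938 to 1.59 Mb. All deserts with cores under 0.1 Mb held 67.3 per Mb, and those of 0.1 to 0.2 Mb 55.3. Those of 0.2 to 0.5 Mb held 46.2, those of 0.5 to 1 Mb 31.0 and those of 1 to 2 Mb 23.9. The median density of the list's deserts was 57.6 per Mb, against 36.9 per Mb for all deserts of 0.2 to 0.5 Mb. No background weighted by core size was computed. None of the shares or densities of the 8 lists was tested. Among the 18 that did not flank such a desert were Idh1, Idh2, Cdkn2a, Pdgfa, Olig1, Olig2, Gfap and Nf1. Cdkn2b, a cell cycle inhibitor beside Cdkn2a, did flank one, and its desert with Dmrta1 on chromosome 4 held 17 far regions with scores between 121 and 1158.

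Myc, the proto-oncogene transcription factor, lay between deserts that differed in far regions. The desert from Myc to Gsdmc at chr15:61990362-63775970 held 83 in a core of 1.59 Mb, at 52.3 per Mb. The desert on the other side, from A1bg to Myc, held 15 in 0.864 Mb, at 17.4 per Mb. Of the 83, 61 lay in the part of the core nearer to Myc, with a median score of 692, and 22 in the part nearer to Gsdmc, with a median of 235.5. The lncRNA Pvt1, known as a neighbour that is often amplified together with Myc, held 37 of them, with scores between 137 and 1781 and a median of 775. The highest, 2487, lay beyond Pvt1 at chr15:62743411-62744530, 753 kb from Myc.

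Mycn, a paralogue of Myc, also had unequal sides. The desert from Cyria to Mycn on chromosome 12 held 36 far regions at 101.4 per Mb, 29 of them in the part nearer to Mycn, and the desert from Mycn to Ddx1 held 4 in a core of 0.0775 Mb. The scores of the 29 had a median of 417, lower than the median of 765 for the 7 nearer to Cyria. Numbers and scores, which were not matched for width, thus did not go together here, unlike beside Myc.

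Sox2, a transcription factor of neural stem cells, flanked 53 far regions toward Atp11b and 21 toward Dnajc19 on chromosome 3, at 58.8 and 57.0 per Mb. The highest score toward Atp11b was 2482, 978 kb from Sox2 and 123 kb from Atp11b. Sox9, a factor of glial specification, flanked 37 toward Gm11677 at 43.2 per Mb and 27 toward Slc39a11 at 105.0 per Mb, on chromosome 11. Sox4 and Sox11, related factors of immature neurons, flanked 30 toward Prl5a1 and 24 toward Cmpk2. Sox2, Sox4, Sox9 and Sox11 each had far regions on both sides, with 1 on the short side of Sox4, in a core of 0.0380 Mb, while Sox10 flanked no desert between genes.

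Hes1, a Notch target that holds back neuronal differentiation, flanked 44 in a core of 0.202 Mb toward Opa1 on chromosome 16, at 217.6 per Mb, the highest density of the list except that between Rad51b and Zfp36l1 (235.3 per Mb, 14 regions). Id4 and Id2, which block helix-loop-helix transcription factors from binding DNA, flanked 47 toward Rnf144b on chromosome 13 and 34 toward Rnf144a on chromosome 12.

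Pdgfra, the receptor of PDGFA, and Kit flanked a desert at chr5:75198207-75574986 with 17 far regions in a core of 0.177 Mb. Their scores ran from 130 to 1267 with a median of 492, and 7 lay on the side of Pdgfra. Kit and Kdr, the next receptor tyrosine kinase genes in the row, flanked 11 in 0.0761 Mb. Egfr had 4 far regions in its desert with Sec61g, with scores no higher than 458. Of the list's 36 deserts, 2 held none, from Id4 to Zfp169 and from Spry2 to Trim52, with cores of 0.0147 and 0.00938 Mb.

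Far from protein-coding genes did not mean far from all annotated genes. Of the 20492 far regions, 4907 (23.9%) shared a base with a non-coding gene, an immune gene segment or a pseudogene, and 15585 (76.1%) with none. Such genes covered 12.8% of the cores. When distance was measured from every annotated gene instead, 3400 regions lay more than 100000 bp away. lncRNAs held 3366 far regions (16.4%) and covered 10.8% of the cores. Pseudogenes held 918 (4.48%), small nucleolar RNAs 163 (0.795%) and V segments 80. At matched width the median score was 702 on any such gene, against 717 on none, so that far regions on and off such genes were close in score. Of the 4 classes just named, it was 1228.5 on V segments, 1044 on small nucleolar RNAs, 691 on lncRNAs and 589.5 on pseudogenes.

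Of 2031 lncRNA genes in far sequence 1063 (52.3%) held at least 1 far region. lncRNAs covered 70.6 Mb of the cores, and far regions numbered 30.9 per Mb over all deserts. The share to be expected from the length of these genes was not computed. The lncRNA with most was Snhg14 on chromosome 7, with 55. Snhg14 is the long transcript of the imprinted Prader-Willi and Angelman domain, which carries clusters of Snord116 and Snord115 small nucleolar RNAs and runs antisense to Ube3a. All 55 far regions of the desert between Ube3a and Snurf lay in it, in the part of the core nearer to Snurf, at 116.6 per Mb. Their scores ran from 127 to 4040 with a median of 1095. At matched width their median was 1212, against 691 over all far regions on lncRNAs. The Snord116 copies are near-identical, so the score of each copy is uncertain.

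Lncpint on chromosome 6 held 26 far regions with a median score of 701.5. Morrbid, a lncRNA beside the apoptosis gene Bcl2l11 on chromosome 2, held 22 with a median of 602. Lncenc1, between Enc1 and Arhgef28 on chromosome 13, held 21 with a median of 752. Their median widths were 660 bp for Lncpint, 550 bp for Morrbid and 630 bp for Lncenc1. At matched width Lncpint had a median of 627, below the 691 over all far regions on lncRNAs. The 10 far regions of Zmiz1os1 on chromosome 14 were narrower, with a median width of 215 bp, and had a median score of 204.5 and none above 440. The microRNA host transcripts Mir100hg and Mir99ahg held 9 each, with medians of 306 and 423, and Rmst, a lncRNA of neural differentiation, held 2, of which the higher scored 1227.

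Promoter windows of lncRNAs were covered less often in far sequence than nearer to protein-coding genes. Far sequence held fewer regions at large, 31.2 per Mb against 109.7 per Mb in the rest. A lower share covered was thus not particular to promoters. Of 2014 promoter windows of 300 bases in far sequence, 268 (13.3%, Wilson interval 11.9% to 14.9%) shared a base with a far region. Of 9297 windows within 100000 bp of a protein-coding gene, 2943 (31.7%, 30.7% to 32.6%) shared a base with a region. The far windows were poorer in CpG, with 4.22% of them holding at least 11 CpG dinucleotides against 19.7% of the nearer ones. The share covered increased with CpG content in both, and was lower in far windows at each level. With 0 to 2 CpG dinucleotides it was 7.40% in far windows against 14.5% in nearer ones. With at least 11 it was 38.8% (33 of 85, 29.2% to 49.5%) in far windows, against 61.7% (59.4% to 63.9%) in nearer ones.

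**Figure D5:**
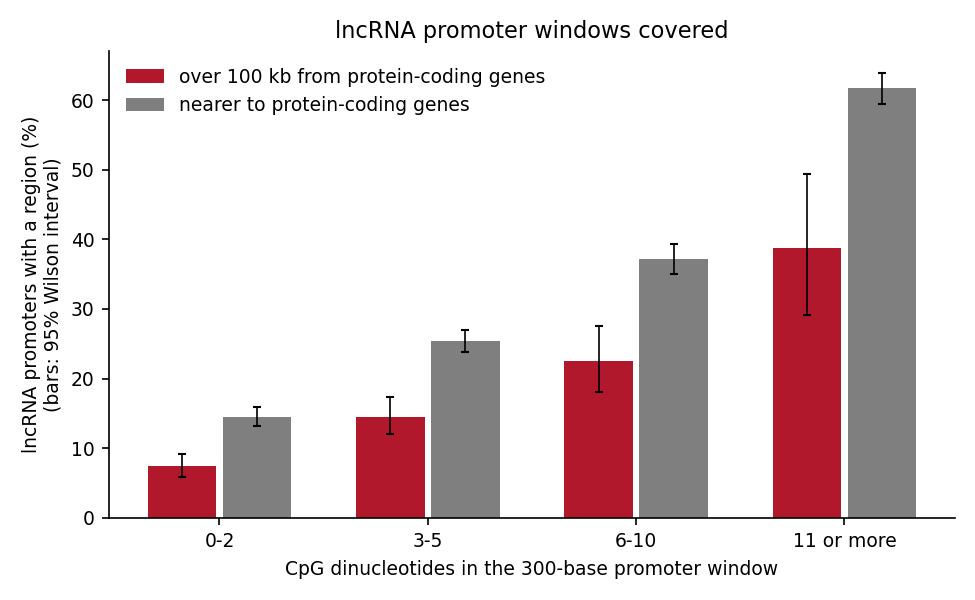
Percentage of lncRNA promoter windows that share a base with a region, by the number of CpG dinucleotides in the 300-base window, for windows in far sequence (red) and nearer to protein-coding genes (grey). Error bars are 95% Wilson intervals; the red bar is lower in each of the 4 classes, at 38.8% against 61.7% with 11 or more CpG dinucleotides.

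Far regions were unevenly spaced, and no spacing expected from their density was computed. Over 19210 pairs of neighbours in the same desert the median gap was 13.0 kb (quartiles 3.40 and 35.5 kb), the longest was 688 kb, and 2439 gaps (12.7%) were under 1 kb. The densest window of 20 kb held 15 far regions, on the Snord116 copies of Snhg14, with a median score of 1212. The next, at chr3:34753251-34772230, began 101 kb from the end of Sox2 and held 14, with scores between 127 and 791 and a median of 331.5. A window of 13 lay between Cyria and Mycn on chromosome 12, with a median of 388. The windows beside Sox2 and Mycn thus held many regions of modest score, unlike the one in Snhg14. A window of 11 lay at the promoter end of Lncpint, with no score under 508.

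The far region with the highest score, 4950, was also the farthest from any protein-coding gene, between Celf4 and Pik3c3 on chromosome 18, and was 550 bp wide. The other members with the highest scores were 4937 between Zfp746 and Krba1 on chromosome 6, at chr6:48226581-48227330, 4837 before Olfr161 on chromosome 16, 4750 between BC048507 and Mtrr on chromosome 13, 4551 between Ddx18 and Dpp10 on chromosome 1, and 4527 on the V segment Trav13n-4 in Tcra, at chr14:53363781-53364530. A neighbour of the farthest region in the same desert, 2187 kb from any gene, scored 265. The widest far regions were 1980 bp wide with scores of 687, between Gadd45g and Diras2 on chromosome 13, and 761, before Hnf4g on chromosome 3, and the next, of 1970 bp, lay on Pvt1 with a score of 812. Width near the limit therefore did not come with scores near the limit.

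The members just inside the distance limit lay 100006, 100007 and 100008 bp from a gene, with scores of 878, 556 and 697, and those just outside lay 99996, 99992 and 99979 bp away, with scores of 136, 545 and 825. The scores just above the limit were 5060, 5067 and 5190, and the widths just at or above it 2000, 2010 and 2010 bp. The score and width limits left out 150 of 20642 regions at this distance.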

How the data were processed

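The authors deposited 1 list of regions for all 8 lines, in which each region has a score, a single value for the whole series. The submitters' processing notes name Novoalign 3.7.1, Picard and the build mm10; how regions were called and scored is not stated there. The planned comparison of IDH mutant with wild-type lines needed values per line and was not run. Coordinates count from 1. Genes came from RefSeq GRCm38.p6. Judged by their order, 348 of its rows seem to carry scaffold coordinates and were left out. Including them left the number of far regions unchanged and gave 1273 deserts with a far region instead of 1266. Distances run from the nearest edge of a region to the nearest protein-coding gene body. Promoter and microRNA sequences came from the RefSeq tables. Deserts named are the 12 with most far regions, the 6 densest with cores of at least 1 Mb, the 6 longest, and the 3 longest without any; regions named have the highest scores, widths and distances; others were chosen after their values were seen. The members and the gene lists were chosen with earlier results of these data known. Python 3.11.15, pandas 2.3.3 and scipy 1.17.1 were used, and the placing of regions was checked on simulated positions. Some items that these rules would name are not reported here.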

Additional observations from a re-analysis of the deposited data

How the results depend on the processing

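Each of 6 results (the number of far regions, their share of autosomal regions, the number of deserts with one, and their median score, width and score at 400 to 800 bp) was recomputed under 12 alternatives, 2 of them added after seeing the data. Of these 72 values, 45 stayed within 1.5 times a count or within the 95% interval of the main value. These intervals were computed over the regions of the list, which are not replicates, so the 45 is a description only. With a distance of more than 50000 bp there were 32222 far regions, 15.0% of autosomal regions, in 2193 deserts, with medians of 416 for score, 390 bp for width and 697 for score at matched width. With more than 200000 bp there were 11437, 5.33%, in 669 deserts, with medians of 368, 350 bp and 732. Measured from every annotated gene of any type there were 3400, 1.58%, in 808 stretches, with medians of 346, 320 bp and 771. Without predicted and clone-named genes the share was 10.7% and the median score at matched width 723. With scores under 2000 the share was 9.41%, the median score 388 and at matched width 702. With scores of at least 200 the share was 6.98%, the median score 568 and the median width 490 bp. Without the antigen receptor loci the share was 9.32%. The direction against nearer regions was not recomputed under these alternatives. No paired analysis was possible because the list holds no value for a single line, and for the same reason no line could be left out. Depth limits no value here in a known way, since the depth of each line is unknown.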

Other observations

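The 150 regions that met the distance rule but not its limits had a median score of 4182.5 and a median width of 2170 bp. Of these, 74 reached the score limit, 94 the width limit and 18 both, and 81 lay on a non-coding gene, an immune gene segment or a pseudogene. The highest scores among them were 107977 at chr13:3372691-3373860, before Gdi2, 94553 at chr2:98666231-98667340, between Lrrc4c and Iftap, 59127 on Snhg14, over 13090 bp, and 44701 at chr17:39842991-39848830, on the ribosomal RNA pseudogene Rn18s-rs5. The X chromosome, which the rule leaves out, had 6135 regions, of which 1085 lay at this distance and met the score and width limits. These 1085 had a median score of 347 (quartiles 185 and 695). The median was 693 for the 391 of them that were 400 to 800 bp wide.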
